A study of Mus musculus with 9 samples.

Results

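The TRiC chaperonin, also called CCT, is built from the products of the 8 genes Tcp1, Cct2, Cct3, Cct4, Cct5, Cct6a, Cct7 and Cct8. The genes were taken by name, as the subunits of this complex found in ordinary cells. The complex was chosen with earlier results of these data known. They are 8 of the 18193 genes that a probe set of their own names on the array, and 25 of the 34945 such probe sets belong to them. The values come from 9 mouse arrays of sorted cells from a study of how T-ALL, an acute leukemia of T cell precursors, arises, and of the effects of too much NOTCH1, a receptor that directs cells to the T lineage, short of malignancy. There are 3 arrays each of Control, Abnormal non-malignant and NIC Tumor samples. The labels give no genotype, promoter, vector, age or strain for any group, leave NIC and the sorted population unexplained, and name no animals. Replicates may thus be technical, and the p-values measure no more than the spread among these arrays.

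TRiC is a cytosolic machine of stacked rings, each with 1 copy of the 8 subunits, that encloses newly made proteins and uses ATP to let them fold. Actin and tubulin depend on it, as do cell cycle regulators and many proteins with WD repeats. Prefoldin hands it unfolded chains, and phosducin-like proteins act as co-chaperones. The subunits differ in sequence and in how tightly they bind ATP, with Cct2, Cct4 and Cct5 on the tightly binding side of the ring and Cct3, Cct6a and Cct8 on the weakly binding side. T-ALL cells grow fast under NOTCH1 and MYC, and such growth needs much new protein.

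The 8 genes lie on 8 different chromosomes. RefSeq (GRCm38.p6) has promoter sequence for 7 of them. The upstream bases are shown for Cct8 and Cct5, which were called higher in the tumors with any 1 array left out, and for Cct2, which was not called. Each run reads 5′ to 3′ along the gene's own strand and ends at the base before the annotated start. Capitals mark the GC box GGGCGG on either strand. Cct8 lies on the minus strand of chromosome 16, and its run (chr16:87495870-87496072) stops where the gene B130034C11Rik begins. Those of Cct5 (chr15:31601847-31602096) and Cct2 (chr10:117063853-117064102) are also on the minus strand.
Cct8: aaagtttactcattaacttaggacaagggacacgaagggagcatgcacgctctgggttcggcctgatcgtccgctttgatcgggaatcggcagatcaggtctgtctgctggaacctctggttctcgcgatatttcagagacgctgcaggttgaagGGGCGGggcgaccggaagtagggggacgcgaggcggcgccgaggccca
Cct5: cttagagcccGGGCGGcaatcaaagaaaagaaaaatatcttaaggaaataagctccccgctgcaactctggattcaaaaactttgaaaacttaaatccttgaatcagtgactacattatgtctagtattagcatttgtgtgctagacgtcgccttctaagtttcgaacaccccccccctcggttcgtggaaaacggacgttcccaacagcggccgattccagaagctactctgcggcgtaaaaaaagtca
Cct2: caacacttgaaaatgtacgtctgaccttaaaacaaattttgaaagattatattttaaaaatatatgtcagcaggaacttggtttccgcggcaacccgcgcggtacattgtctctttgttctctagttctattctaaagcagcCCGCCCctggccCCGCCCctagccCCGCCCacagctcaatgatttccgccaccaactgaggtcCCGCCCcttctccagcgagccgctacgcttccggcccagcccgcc

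A GC box was found in the 250 bases before the start of 7 of 7 members, against 33.0% of 27025 promoters searched the same way on both strands. In Cct2 it occurred at 4 places, and in Cct5 and Cct8 at 1 place each. The ETS core CCGGAA was present in 4 of 7 (Tcp1, Cct2, Cct7 and Cct8) against 12.3%, and the CCAAT box, CCAAT, in 4 of 7 (Tcp1, Cct3, Cct6a and Cct7) against 34.5%. The E-box CACGTG, the sequence that MYC binds, was in 0 of 7 and in 6.04% of promoters. Of the paired heat shock elements, GAANNTTC was in 0 of 7 (6.79% of promoters) and TTCNNGAA in 1, Cct5 (7.18%). The members' windows held 45.2% to 66.4% G and C, with a median of 52% over all promoters, and the share of a motif moves with that content. The motifs were chosen after the expression values were seen, and a match describes letters, not binding.

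All 8 members stood among the brightest probe sets of the arrays. Each lay at or above the 96.1 percentile of its array on all 9 arrays. The levels below are log2 signal of 1 probe set per gene, that with the highest mean, and are not set against each other between genes. In sorted bulk samples, fewer cells of a type and less RNA per cell cannot be told apart.

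In the NIC tumors 5 of the 8 subunits rose against controls, namely Tcp1, Cct3, Cct5, Cct6a and Cct8, and 0 fell. Of all 13296 genes tested, limma called 8.48% higher and 7.19% lower at an adjusted p under 0.05. The 8 differences ran from 0.33 to 1.01 on the log2 scale with a median of 0.44, against a median of 0.06 over all genes. On the probe sets used, every tumor array lay above every control array in 7 of the 8, all but Cct2. This pattern was seen in 18.2% of the genes tested. Some other sets differed. On 1433447_x_at of Cct4, tumor 3 read 10.47 and the controls 10.58 to 11.03. On 1416037_a_at of Cct2, the tumors (12.44 to 13.1) lay above the controls (11.79 to 12.3). The calls of Cct5, Cct6a and Cct8 held with any 1 array left out, whereas those of Tcp1 and Cct3 did not, as given with their values.

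In the abnormal non-malignant samples all 8 subunits stood higher than in controls without passing the test. By limma 0 of 8 were called, with 4 at an unadjusted p under 0.05, while 2.87% of all genes were called higher and 0.654% lower. An unadjusted p under 0.05 was reached by 1766 of the 13296 genes. The differences ran from 0.11 to 0.79 with a median of 0.29, against 0.01 over all genes. In Cct3, Cct5, Cct6a and Cct8 every non-malignant array lay above every control array, which held for 17% of all genes. Of all pairs of arrays, non-malignant 2 and 3 were the most alike, with an SD of 0.16 over the differences between their genes against 0.30 for the next pair. With these arrays averaged and counted as 1 sample, 0 members were called here and 3 (Cct5, Cct6a and Cct8) in tumors against controls. By the same SD, tumor 1 was closer to non-malignant 1, 2 and 3 (0.46, 0.47 and 0.46) than to tumors 2 and 3 (0.63 and 0.79).

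Both comparisons share the control arrays, so their values stand side by side and are no independent support for each other. Tumors set directly against non-malignant samples gave 8 positive differences, from 0.04 to 0.52 with a median of 0.19, where all genes had a median of 0.03. Of these 0 were called by limma and 2, Tcp1 and Cct6a, had an unadjusted p under 0.05 and groups that did not overlap. An unadjusted p under 0.05 was reached by 3444 of the 13296 genes. Over all genes, 1.53% were called higher in tumors than in non-malignant samples, 2.7% lower, and 12.3% had every tumor array above every non-malignant array. Without tumor 1, Tcp1 and Cct6a were called in this comparison. That fit called 3408 of 13255 genes in either direction, against 562 of 13296 with all arrays.

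**Figure D1:**
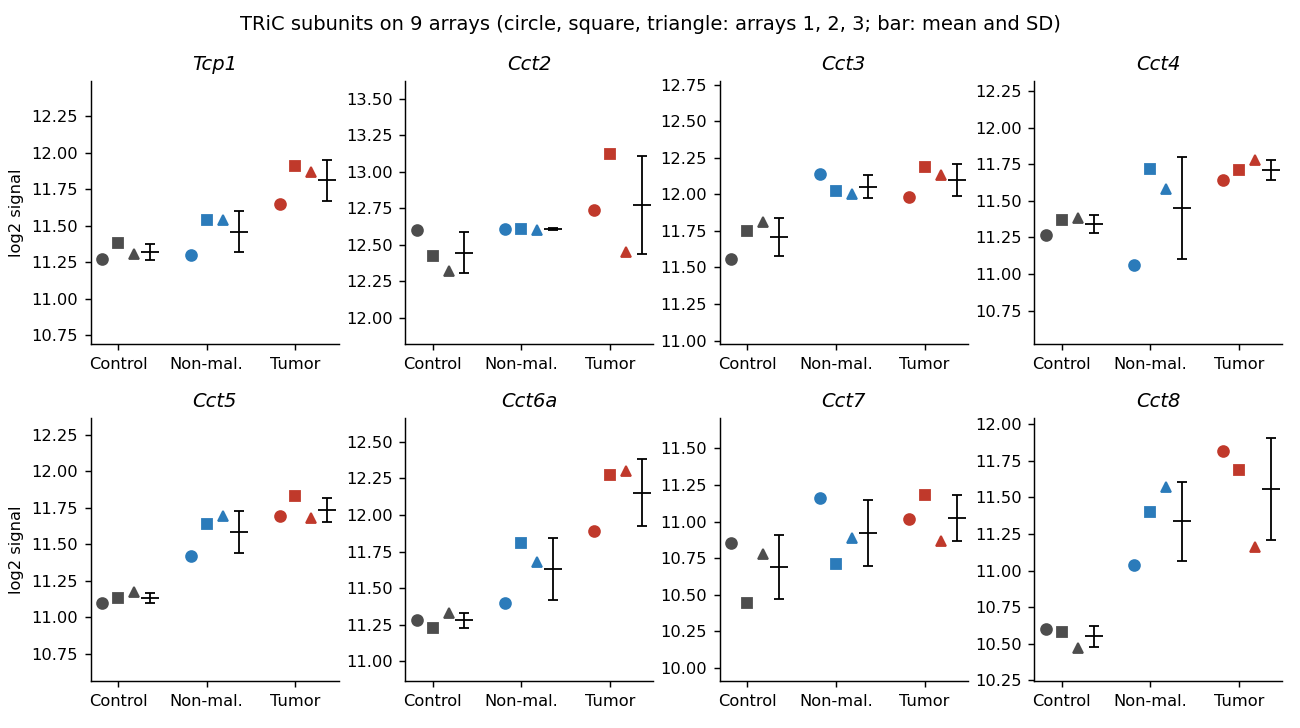
Log2 signal (vertical axis) of the 8 TRiC subunits on the 9 arrays. Each panel is 1 gene with the arrays of Control, Abnormal non-malignant (Non-mal.) and NIC Tumor numbered by symbol, the bars give mean and SD of 3 arrays, and every panel spans the same number of log2 units. Cct8 runs from 10.47 to 10.6 in controls and from 11.16 to 11.82 in tumors, whereas the Cct2 groups overlap.

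**Figure D2:**
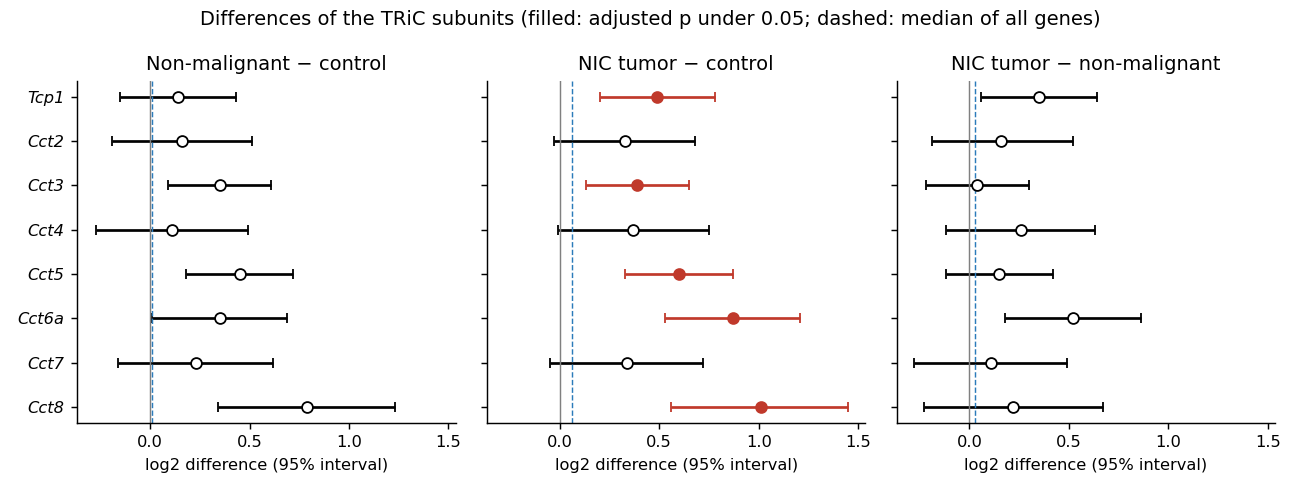
Log2 difference with its 95% interval (horizontal axis) for the 8 subunits in the 3 comparisons. Filled points have an adjusted p under 0.05 by limma and the dashed line is the median of all genes. The 5 filled points are all in tumors against controls, and every point of the 3 panels lies above 0.

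Of the weakly ATP-binding subunits, Cct8 and Cct6a had the largest tumor differences of the 8, whereas Cct3 (0.39) stood below Cct5 (0.60). The sides of the ring were not compared by a test. Cct8, the theta subunit, read 10.6, 10.58 and 10.47 on control arrays 1, 2 and 3, 11.04, 11.4 and 11.57 on the non-malignant arrays and 11.82, 11.69 and 11.16 on the tumors. All 6 non-control arrays lay above the controls, and tumor 3 lay within the non-malignant range. The tumors were 2.01-fold higher than controls (95% interval 1.48 to 2.74; log2 difference 1.01 ± 0.20 SE, limma adjusted p = 0.0111). The non-malignant samples were 1.73-fold higher with an adjusted p of 0.0695 (log2 difference 0.79 ± 0.20 SE). That comparison passed without tumor 1 (adjusted p = 0.0437), without tumor 3 (0.0212) and with only both of its groups in the fit (0.0192), all with the same difference, since the tumors enter it only through the shared spread.

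Cct6a, the zeta subunit, whose close relative Cct6b belongs to the testis, read 11.28, 11.23 and 11.33 in controls, 11.4, 11.81 and 11.68 in non-malignant samples and 11.89, 12.27 and 12.3 in tumors. The 3 groups did not overlap on this probe set. On its other set, 1455988_a_at, control 1 and non-malignant 1 both read 10.93. Tumor 3, at 11.2 on that set, lay within the non-malignant range of 10.93 to 11.37. The tumor rise was 1.83-fold (95% interval 1.45 to 2.32; log2 difference 0.87 ± 0.15 SE, limma adjusted p = 0.00693), the 1 member under an adjusted p of 0.01. The non-malignant difference of 0.35 did not pass (adjusted p = 0.355). Tumors stood 0.52 ± 0.15 (SE) above non-malignant samples, with an adjusted p of 0.0814, which was 0.0136 without tumor 1.

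Cct3, the gamma subunit, read 11.56, 11.75 and 11.81 in controls, 12.14, 12.02 and 12 in non-malignant samples and 11.98, 12.19 and 12.13 in tumors. The controls lay below all other arrays, and the non-malignant and tumor arrays overlapped. The tumor rise of 0.39 ± 0.12 (SE) barely passed (limma adjusted p = 0.0483) and the call ended with any 1 array except tumor 1 left out, where the differences were 0.32 to 0.44. The non-malignant difference was of like size (0.35 ± 0.12 SE, 95% interval 0.09 to 0.61) with an adjusted p of 0.19. Between tumors and non-malignant samples the difference was 0.04 (95% interval −0.22 to 0.30).

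On the tightly binding side only Cct5 was called. Cct5, the epsilon subunit, which can form rings of its own, had the narrowest controls of the 8 at 11.1, 11.13 and 11.17. The non-malignant arrays read 11.42, 11.64 and 11.69 and the tumors 11.69, 11.83 and 11.68. All 6 lay above the controls and overlapped each other. The tumor rise was 1.51-fold (log2 difference 0.60 ± 0.12 SE, limma adjusted p = 0.0119), and the non-malignant samples stood 1.36-fold higher with an adjusted p of 0.0891.

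Cct2, the beta subunit, was not called. It read 12.6, 12.42 and 12.32 in controls, 12.61, 12.61 and 12.6 in non-malignant samples and 12.74, 13.12 and 12.45 in tumors. Tumor 3 lay within the control range. The tumor difference was 0.33 (95% interval −0.03 to 0.68, limma adjusted p = 0.186), an interval that still allows a rise as large as that of Cct5.

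Cct4, the delta subunit, likewise did not pass. It read 11.27, 11.37 and 11.38 in controls, 11.06, 11.72 and 11.58 in non-malignant samples and 11.64, 11.71 and 11.78 in tumors. Non-malignant array 1 was the lowest of all 9 while arrays 2 and 3 lay above the controls. The tumors lay above all controls, by 0.37 (95% interval −0.01 to 0.75, limma adjusted p = 0.166). The non-malignant difference of 0.11 was −0.02 without array 2.

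Tcp1, the alpha subunit and the founding member, named for the mouse t complex, read 11.27, 11.38 and 11.31 in controls, 11.3, 11.54 and 11.54 in non-malignant samples and 11.65, 11.91 and 11.87 in tumors. The tumors lay above all other arrays, and the non-malignant arrays overlapped the controls. The tumor rise was 1.4-fold (log2 difference 0.49 ± 0.13 SE, limma adjusted p = 0.0311). Its call ended without any 1 control, non-malignant 2 or 3, or tumor 2 or 3, where the differences were 0.44 to 0.52. The non-malignant difference was 0.14 (adjusted p = 0.818), and tumors stood 0.35 above non-malignant samples (adjusted p = 0.131, and 0.0388 without tumor 1).

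Cct7, the eta subunit, varied most within controls. It read 10.85, 10.44 and 10.78 in controls, 11.16, 10.71 and 10.89 in non-malignant samples and 11.02, 11.18 and 10.87 in tumors. Tumor 3 cleared the highest control by a small margin, and the non-malignant arrays overlapped both other groups. The tumor difference was 0.34 (95% interval −0.05 to 0.72, limma adjusted p = 0.21) and the non-malignant difference 0.23 (adjusted p = 0.729).

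The subunits moved by unequal amounts. Averaged over the 8 genes, the arrays stood within 0.02 of the control mean in controls, 0.21, 0.37 and 0.39 above it in non-malignant samples and 0.49, 0.68 and 0.47 above it in tumors 1, 2 and 3. Against the mean of the other 7 subunits on the same array, Cct8 was 0.53 higher in non-malignant samples and 0.52 higher in tumors than in controls, with every such array above the controls. Its excess was 0.89, 0.53 and 0.16 on tumors 1, 2 and 3. Cct6a did the reverse across the tumors on the probe set used, with 0.13, 0.35 and 0.62, and averaged 0.03 in non-malignant samples. Its other set, 1455988_a_at, did not increase towards tumor 3, reading 11.5, 11.57 and 11.2 on tumors 1, 2 and 3. The reverse order thus rests on the set used. The other 6 subunits averaged −0.26 to 0.14 in both groups. These are descriptions of ratios within an array, with no test.

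Over the 9 arrays Cct5 followed the mean of the other 7 subunits most closely (Pearson r = 0.97) and Cct7 least (0.53), the others lying between 0.68 and 0.90. The arrays form 3 groups and share normalization, so these correlations mostly restate the group means.

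Most members have further probe sets, and these did not all give the same size. Affymetrix marks with the suffix x or s those probe sets whose probes may match other transcripts, and the sets used for Cct2 and Cct3 carry an x. Cct2 differed by 0.71 between tumors and controls on its set 1416037_a_at (limma adjusted p = 0.0411 in a fit of all probe sets) and by 0.35 on 1433534_a_at (0.334). The call for Cct2 thus depends on the probe set.

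The Cct3 sets spread widest. Its used set had an adjusted p of 0.0518 in the fit of all probe sets, 1459987_s_at gave 0.61 (0.0307), 1449645_s_at gave 1.21 (0.0502), and 3 others gave 0.21 to 0.31 without passing. Cct6a was called on both of its sets (0.87, and 0.64 with an adjusted p of 0.0342 on 1455988_a_at). Cct4 gave 0.02 to 0.26 on its 5 other sets above the filter and Cct7 0.32 on its other set, none of them called. Tcp1 and Cct5 have 1 probe set each, and the other set of Cct8 was not above the filter on dim signal. Averaged with that dim set, Cct8 differed by 0.56 in tumors and 0.39 in non-malignant samples, the former still called. Averaged over its 7 sets, Cct4 differed by 0.18 in tumors.

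**Figure D3:**
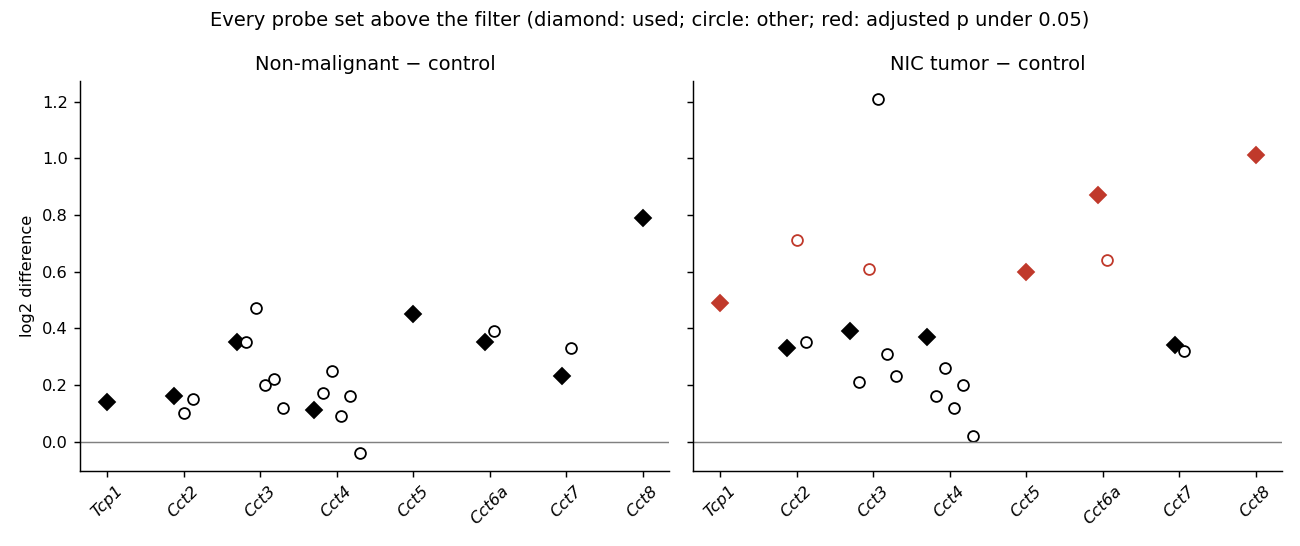
Log2 difference (vertical axis) of every member probe set above the filter, in non-malignant samples and in tumors against controls. Diamonds are the probe sets used, circles the others, and red marks an adjusted p under 0.05 in a fit of all probe sets. The Cct3 sets run from 0.21 to 1.21 in the tumors, and Cct6a is red on both of its sets.

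Genes around the complex were taken from written lists, to be read beside the shares of all 13296 genes tested. In tumors against controls limma called 8.48% higher and 7.19% lower, and 4280 genes had an unadjusted p under 0.05. In non-malignant samples against controls these were 2.87%, 0.654% and 1766. Between tumors and non-malignant samples they were 1.53%, 2.7% and 3444. Prefoldin, which delivers unfolded actin and tubulin to TRiC, did not pass with any subunit. By limma 0 of 6 were called in tumors (0 also at an unadjusted p under 0.05), with a median of 0.26 and Pfdn2 the largest at 0.51 (adjusted p = 0.187). In non-malignant samples 0 of 6 were called (0 unadjusted), with a median of 0.27 and Pfdn1 at 0.46 (adjusted p = 0.736). Of 3 phosducin-like co-chaperones 0 were called in either comparison with controls (1 unadjusted in each). Pdcl stood at −1.04 in tumors (adjusted p = 0.0888) and Txndc9 at 0.47 in non-malignant samples (0.21).

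Of the prefoldin-like and R2TP genes, whose products assemble large complexes such as RNA polymerase II, 3 of 6 rose in tumors and 0 fell, with a median of 0.80. Ruvbl1 and Ruvbl2, the paired ATPases, rose by 1.19 ± 0.22 (SE, limma adjusted p = 0.00947) and 1.02 ± 0.21 (0.0122) and kept their calls with any 1 array left out. Rpap3, the HSP90 adaptor, rose by 1.10 (0.0232), a call that ended without any 1 control or tumor 2. In non-malignant samples 0 of 6 were called (3 unadjusted), Rpap3 standing at 0.74 (adjusted p = 0.235).

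The tubulin folding cofactors take tubulin from TRiC and join it into dimers. Tbcd, cofactor D, read 10.05, 10.01 and 10.11 in controls, 10.8, 10.78 and 10.71 in non-malignant samples and 10.92, 10.9 and 10.86 in tumors. It rose in tumors by 0.84 ± 0.12 (SE, limma adjusted p = 0.00314), with the call held in all 9 fits that leave out 1 array. In non-malignant samples it rose by 0.71 ± 0.12 (adjusted p = 0.0111), which ended without control 1 or non-malignant 2 or 3 and was 0.0678 with arrays 2 and 3 averaged. Tbca rose in tumors (0.66, adjusted p = 0.0386), and this ended without any 1 control, non-malignant 2 or 3, or tumor 3. That makes 2 of 6 cofactors called in tumors, 1 of 6 in non-malignant samples and 0 of 6 between tumors and non-malignant samples (1 unadjusted, Arl2 at 0.62).

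Of 12 actins and tubulins, the best known substrates, 0 rose and 1 fell in tumors (2 at an unadjusted p under 0.05), with a median of −0.08, beside 8.48% of all genes called higher and 7.19% lower. Tuba1a, an alpha tubulin, read 11.44, 11.44 and 11.63 in controls, 11.71, 11.5 and 11.56 in non-malignant samples and 11.04, 10.3 and 9.92 in tumors. It fell by 1.08 against controls (limma adjusted p = 0.0187) and by 1.17 against non-malignant samples (0.0351). The call against controls ended without any 1 control or tumor 2, and that against non-malignant samples held only without tumor 1. In non-malignant samples 0 of 12 were called (0 unadjusted), with Tubb2b at 1.39 (adjusted p = 0.416). Of 12 other substrates 1 rose in tumors (4 unadjusted), Hdac3 (0.57, adjusted p = 0.0399), the deacetylase that TRiC folds before it joins its corepressor. That call held only without non-malignant 1 or tumor 1. In non-malignant samples 0 of the 12 passed (0 unadjusted), with Stat3 at 0.66 (adjusted p = 0.476).

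Of the 4 listed relatives of TRiC, with roles in testis or cilia, 2 passed the filter and were tested, and 0 were called by limma in any comparison (0 in non-malignant samples and 1 in each tumor comparison at an unadjusted p under 0.05). Mkks, a helper of cilium protein assembly, stood 0.60 higher in tumors with an adjusted p of 0.0502 and 0.35 higher in non-malignant samples (0.473). Bbs10, which acts with it, stood at −0.48 in tumors against controls (adjusted p = 0.174), 0.11 in non-malignant samples (0.96) and −0.59 between tumors and non-malignant samples (0.145).

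The mitochondrial folding machines had 4 of 5 genes called higher in tumors and a median of 1.21. Hspd1, the mitochondrial chaperonin HSP60, read 10.88, 10.75 and 11 in controls, 11.32, 11.73 and 11.76 in non-malignant samples and 11.76, 12.44 and 12.13 in tumors. Its tumor rise was 1.24 ± 0.19 (SE, limma adjusted p = 0.00421). Hspa9, the mitochondrial HSP70, rose by 1.57 (0.00346) and Trap1, the mitochondrial HSP90, by 1.21 (0.00944), and these 3 kept the call with any 1 array left out. Hspe1, the HSP60 lid, rose by 1.03 (0.0343), which ended without control 1 or 2, non-malignant 3 or tumor 2. In non-malignant samples 0 of 5 were called (2 unadjusted), with Hspd1 at 0.73 (adjusted p = 0.0821).

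Against non-malignant samples 2 of these 5 rose in tumors, Hspa9 by 1.23 (limma adjusted p = 0.0269) and Trap1 by 0.97 (0.0479). With 1 array left out the former held only without control 1, control 2 or tumor 1 and the latter only without tumor 1.

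Of 20 cytosolic HSP70 and HSP90 genes tested, 3 rose and 1 fell in tumors, with a median of 0.22. Over all genes 8.48% were called higher and 7.19% lower. The count of rises among the 20 ran from 0 to 6 with 1 array left out. Hspa4, a nucleotide exchange factor, rose by 0.77 (limma adjusted p = 0.017, ending without control 2 or tumor 2) and Bag2 by 0.79 (0.0191, ending without control 2 or 3). Hspbp1 rose by 1.02 (0.0244), ending without any 1 control or tumor 2 or 3. The gene that fell was Dnajb1, an HSP40 induced by heat shock (−0.84, adjusted p = 0.0259), ending without any 1 control or tumor 2.

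In non-malignant samples 0 of the 20 were called (4 unadjusted). Hspa1a had the largest difference there (1.99, adjusted p = 0.409). Hspa1b, the stress-induced HSP70, read 10.25, 7.15 and 10.86 in controls, 10.34, 11.64 and 11.7 in non-malignant samples and 8.17, 6.11 and 6.2 in tumors. Control 2 stood apart from the other controls by over 3 log2 units. Hspa1b was thus lower in tumors than in non-malignant samples by a log2 difference of −4.40 (limma adjusted p = 0.0351). Hsph1 (−1.38, adjusted p = 0.0241) and Dnaja1 (−0.67, 0.0266) fell in that comparison too, making 3 of 20. Each of these 3 calls ended without any 1 non-malignant array.

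**Figure D4:**
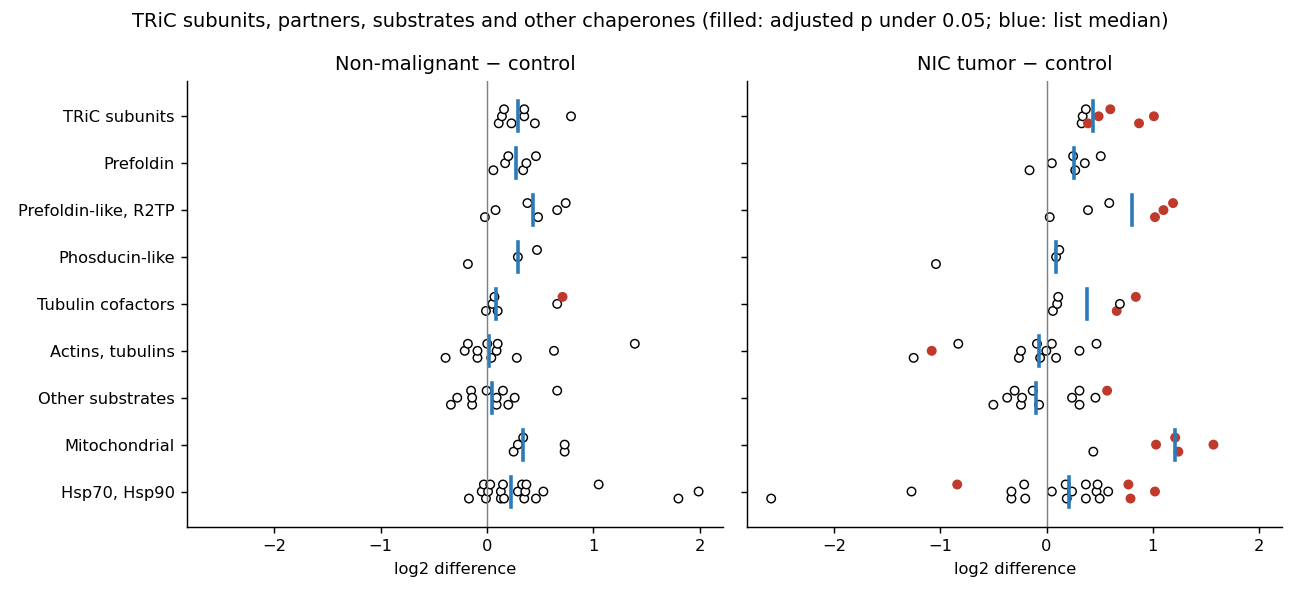
Log2 difference (horizontal axis) of single genes by list, in non-malignant samples and in tumors against controls. Filled points have an adjusted p under 0.05 by limma and blue bars are list medians. Among the lists drawn, the mitochondrial one has the highest tumor median (1.21), TRiC stands at 0.44 and the actins and tubulins lie at −0.08.

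Of 4 transcription factors listed as regulators, 3 had a probe set of their own and were tested. Myc, which drives growth, read 7.43, 6.9 and 7.12 in controls, 8.34, 8.27 and 8.1 in non-malignant samples and 8.81, 9.72 and 9.93 in tumors. The 3 groups did not overlap. Myc rose in tumors against controls by 2.34 ± 0.28 (SE, limma adjusted p = 0.00133). It stood 1.09 higher in non-malignant samples without passing (0.0805), and rose by 1.25 from non-malignant samples to tumors (0.0433, held only without tumor 1).

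Mycn, its relative, read 8.2, 9.32 and 7.9 in controls, 13.27, 13.7 and 13.73 in non-malignant samples and 12.68, 13.76 and 13.14 in tumors. It rose by 5.09 in non-malignant samples (limma adjusted p = 1.00e-04) and by 4.72 in tumors (1.97e-04). Hsf2, a heat shock factor, stood at −0.56 in non-malignant samples and −0.87 in tumors and was not called.

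Several genes tracked the mean of the 8 subunits over the 9 arrays. The highest Pearson r, by a search over 13288 other genes, was that of Suclg2 at 0.99, a subunit of a mitochondrial citric acid cycle enzyme. Polr3c, Bcap29, Hspd1, Rapgef2, Dtd1, Tspan31 and Gusb followed at 0.98. The lowest were Slc49a4 and Lockd at −0.98 and Znrf1 at −0.97. Over all these genes the 5th, 50th and 95th percentiles of r were −0.76, 0.13 and 0.83, with Myc at 0.91 and Mycn at 0.85. Suclg2 read 8.16, 7.83 and 8.06 in controls, 8.97, 9.19 and 9.18 in non-malignant samples and 9.96, 10.56 and 9.74 in tumors.

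The windows upstream of 5 members overlap a gene on the opposite strand, looked up after the values were seen. Tsacc, upstream of Cct3, read 5.06 to 5.26 in controls, 5.39 to 5.67 in non-malignant samples and 6.46, 7.13 and 5.66 in tumors 1, 2 and 3. It rose in tumors by 1.28 (limma adjusted p = 0.0212), a call that ended without any 1 control. With 1 of its 3 control values above the 40th percentile of the array, the controls were near background and the size of this rise is uncertain. Psph, upstream of Cct6a, stood 0.62 higher in tumors (adjusted p = 0.0707). Mrpl18 upstream of Tcp1 (0.03, adjusted p = 0.95) and Pradc1 upstream of Cct7 (0.04, 0.919) did not pass. The gene upstream of Cct8 was not tested.

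The cell content of the samples was read from marker lists. All 10 T lineage markers with a probe set were above the filter on all 9 arrays, and the log2 of their summed signal was 15.53 to 15.77 in controls, 15.53 to 15.64 in non-malignant samples and 14.77 to 15.29 in tumors. Of these 10, Cd247 (−2.09), Cd5 (−1.73), Thy1 (−1.29) and Lat (−0.89) fell and Cd7 (1.61) rose in tumors against controls, and Cd2 (1.42) rose in non-malignant samples. Between tumors and non-malignant samples Cd247 fell by 1.75. The tumor calls of Lat and Cd7 ended without any 1 control or tumor 2 or 3, that of Thy1 without any 1 control, and that of Cd247 against non-malignant samples held only without control 2 or tumor 1. The summed 12 myeloid markers stood above controls in both other groups, at 9.52 to 9.67 in controls, 10.48 to 10.67 in non-malignant samples and 9.87 to 11.30 in tumors. Their tumor range reached below and above the non-malignant range. The mean of the subunits stood 0.21 to 0.39 above controls on the non-malignant arrays and 0.47 to 0.68 above them on the tumor arrays. Of the 11 myeloid markers tested, 1 was called, Ctss, which rose in non-malignant samples (2.34, limma adjusted p = 0.0141) and in tumors (2.51, 0.00593). The former call ended without control 3 or non-malignant 2 or 3. The 4 erythroid markers also summed higher, at 8.15 to 8.27, 8.71 to 8.79 and 8.51 to 9.90, with 1 of them under the 40th percentile of every array. B cell markers summed to 12.44 to 12.78, 12.40 to 13.10 and 11.39 to 12.22, with Cd79b (−1.38) and Ighm (−0.89) lower in tumors against controls. Of the 7 summed, 4 were above the 40th percentile on all 9 arrays. Most of the sum was Ighm, with a control mean of 12.56, and the next of the tested markers was Cd79b at 7.66. The call of Cd79b held only without non-malignant 1 or tumor 3 and that of Ighm only without non-malignant 1 or tumor 1. Antigen-presenting cell markers gave 9.41 to 9.65, 9.63 to 9.92 and 9.55 to 10.10, and stromal markers 9.19 to 9.42, 9.10 to 9.25 and 9.03 to 9.76. Of the 8 stromal markers, 3 were above the 40th percentile on all 9 arrays. The part of these other cells in the subunit differences was not tested.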

How the data were processed

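RNA of sorted mouse cells was labelled with biotin and measured on 9 Affymetrix arrays by a microarray core, per the labels' protocols. The authors deposited log2 values for 45101 probe sets; their background correction, normalization and summarization are not given in the sources used here, and the log base was read from the range of values. Genes were named from the platform annotation. Of several probe sets of a gene, that with the highest mean was used. Genes above the array's 40th percentile on at least 3 arrays were kept (13296). Group means were fitted over all 9 arrays with limma 3.58.1 in R 4.3.3 (lmFit, eBayes with trend; 6 residual degrees of freedom), two-sided, with Benjamini-Hochberg adjustment over all genes and a threshold of 0.05. The fit was tested on simulated data. An exact permutation test of 3 against 3 arrays cannot give a p under 0.1. The members, lists and comparisons were chosen with earlier results of these data known. Besides all members, up to 3 called genes with the smallest adjusted p are named per list and comparison. Otherwise the 1 with the largest difference is named. Also named are all listed regulators that were tested, and the 8 highest and 3 lowest correlated genes. Alternatives were other scaling, filters, probe sets, variance models, array weights, 2-group fits, a replicate block, a stricter threshold, averaging non-malignant arrays 2 and 3, and leaving out each array. Comparative genomic hybridization and karyotypes were not analysed here.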

Additional observations from a re-analysis of the deposited data

How the results depend on the processing

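Cct5, Cct6a and Cct8 kept their tumor calls in all 9 fits that leave out 1 array and in 10 other settings at the same threshold, with log2 differences of 0.55 to 0.67, 0.76 to 1.00 and 0.56 to 1.20. The count of members called in tumors against controls was 5, ran from 3 to 5 with 1 array left out, was 3 with only the 2 groups compared or with non-malignant arrays 2 and 3 averaged, and was 1 (Cct6a) at an adjusted p under 0.01. In non-malignant samples against controls it was 0, ran from 0 to 1 with 1 array left out, was 1 with only the 2 groups and 4 with array weights (beside 2421 of 13296 genes). Between tumors and non-malignant samples it was 0, ran from 0 to 2, the higher count without tumor 1 (beside 3408 of 13255 genes), and was 3 with array weights. Array weights also moved the median tumor difference from 0.44 to 0.58 and called 5700 genes between tumors and non-malignant samples. The cause was not tested. Signs turned for members that were not called. Cct4 in non-malignant samples ran from −0.02 (without non-malignant 2) to 0.31 with 1 array left out and gave −0.04 on probe set 1415868_at. Between tumors and non-malignant samples, Cct2 ran from −0.01 to 0.32 and Cct3 from −6e-04 to 0.10 with 1 array left out, each lowest without tumor 2. Other probe sets gave Cct3 −0.14 on 1448178_a_at, Cct4 −0.01 on 1433447_x_at and Cct7 −0.02 on 1415817_s_at.

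Arrays with the same number did not deviate together throughout (r from −0.05 to 0.22). Arrays with unlike numbers were not compared in this way and the labels name no animals. Whether the numbers pair the samples thus stays unknown. With the replicate block 4 members were called in tumors against controls, Cct3 losing its call (adjusted p = 0.0747), and 0 in each of the other comparisons. With 3 arrays a group, the intervals given beside the differences limit what can be resolved. All members were far above background, so dim signal does not limit them.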
